A study of Mus musculus with 32 samples.

Results

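A2S reprogramming was followed here from day 4 to day 6, over 2 libraries at each time, out of 32 libraries in the series. The libraries were chosen by their labels, and barcodes on the authors' list of irradiated feeder cells were left out. That left 404 cells at day 4 (239 in library A, 165 in library B) and 488 at day 6 (230 and 258). Mouse embryonic fibroblasts (MEFs) had been plated on irradiated MEF feeders in embryonic stem cell (ESC) medium with serum and LIF, and doxycycline at 2 ug/mL switched on reprogramming from day 0. The sources used here do not name the doxycycline-driven factors. A2S stands for ascorbic acid at 50 ug/mL, SGC0946 at 5 uM and the 2i pair CHIR-99021 and PD-0325901. The first 2 were given at day 0 and 2i was added 12 h later. Ascorbic acid is a cofactor of dioxygenases that remove methyl groups from DNA and histones, and SGC0946 inhibits the histone methyltransferase DOT1L. CHIR-99021 inhibits GSK3 and PD-0325901 inhibits MEK. Medium, doxycycline and chemicals were renewed at days 2 and 4. The media A2, S2 and AS, also sampled at days 4 and 6 after doxycycline, lacked SGC0946, ascorbic acid and 2i in that order. Untreated MEFs and ESCs grown for 2 days with A2S give the start and the reference.

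Reprogramming of fibroblasts replaces a mesenchymal programme, with contractile fibres, extracellular matrix and secreted factors, by the gene network of pluripotent cells. Cells usually gain epithelial junctions early and the core factors Nanog, Pou5f1 and Sox2 late. Pluripotent cells grown with 2i and LIF hold a naive state, marked by factors such as Esrrb, Tfcp2l1 and Zfp42 (Rex1).

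Each library was read as 3' counts of unique molecular identifiers (UMIs), which were summed over its cells. Day 4 libraries held 3571367 and 1828409 UMIs and day 6 libraries 3012092 and 2928045. Levels are CPM, a gene's UMIs per 1000000 UMIs of its library after TMM scaling (edgeR's correction of library totals for composition), given for libraries A and B in that order. Fold changes are log2 values ± SE from edgeR's quasi-likelihood test, with n = 2 libraries a group, and genes with a p under 0.05 after Benjamini-Hochberg adjustment are termed called. Where a gene is given a single log2 value, it compares day 6 with day 4 in A2S and has passed this test unless said otherwise. Of 13229 genes tested, 3254 were called (24.6%), of which 1431 were higher at day 6 (10.8%) and 1823 lower (13.8%). Among these, 724 rose and 407 fell by more than 2-fold, and 206 rose and 44 fell by more than 8-fold. Of the 3254 called genes, 3246 had no overlap between their day 4 and day 6 libraries, so separate groups, where mentioned, describe the values and add nothing to a call. The genes named for the largest changes were also required to have it. Sums over cells cannot tell fewer cells of a type apart from less RNA per cell. None of the 897 barcodes of these libraries, before the list was applied, was shared among the 4, and 10 also occurred in another library of the series. The labels do not say that replicates were separate cultures, so p-values measure only the spread between these samples, which may be technical. Counts for gene lists, whose names describe their contents, are of the members that passed the count filter. A gene near 0 at day 4 could pass it through other groups.

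Most measured genes of the pluripotency network rose. Of 43 tested genes of core and naive pluripotency (44 listed), 37 were called higher and 2 lower, with a median log2 fold change of 2.20 against -0.01 over all tested genes. Nanog, a homeobox factor at the centre of the network, stood at 19.3 and 22.5 CPM at day 4 and 232 and 287 CPM at day 6. Both day 6 libraries lay far above both day 4 libraries, a log2 fold change of 3.65 ± 0.21 (adjusted p = 2.6e-13). Tdgf1, a co-receptor of Nodal, measured 9.81 and 22.0 CPM at day 4 and 174 and 203 CPM at day 6, again without overlap (3.72 ± 0.24). Tfcp2l1, a naive-state transcription factor, went from 16.1 and 16.2 CPM to 89.5 and 99.1 CPM (2.54 ± 0.18). Sall4, a zinc-finger factor of the same network, went from 21.0 and 21.5 CPM to 69.8 and 73.0 CPM (1.75 ± 0.21). These 4 genes were thus already counted in both libraries at day 4.

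A second group was near 0 at day 4. Dppa5a, an RNA-binding protein of pluripotent cells, had no UMI in either day 4 library and stood at 67.6 and 80.1 CPM at day 6. Set against a floor of 3 UMIs over both day 4 libraries, that is at least 137-fold higher. Esrrb, an orphan nuclear receptor, had 1 UMI at day 4 and 315 UMIs at day 6, 49.2 and 49.9 CPM. Its ratio of day 6 to day 4 was 276 (95% counting interval 49.2 to 10945). Sox2 measured 2.18 and 0 CPM at day 4 and 41.5 and 57.3 CPM at day 6 (5.07 ± 0.53). Pou5f1 (Oct4) measured 0.817 and 0.524 CPM at day 4 and 24.6 and 26.1 CPM at day 6 (5.07 ± 0.52). Zfp42 measured 0.817 and 0.524 CPM at day 4 and 14.1 and 16.4 CPM at day 6 (4.34 ± 0.50). Each of these 3 had 4 to 8 UMIs in total at day 4. UMIs from doxycycline-driven copies could count toward Pou5f1, Sox2, Klf4 or Myc, and their part in these values was not tested.

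Klf4 rose and Myc fell, each by less than 2-fold, and both calls were lost when some single libraries were left out. Klf4 measured 14.7 and 14.7 CPM at day 4 and 34.1 and 22.8 CPM at day 6 (0.96 ± 0.25), and the call was lost without day 6 A, at 0.66 (adjusted p = 0.12), and without day 4 A, at 0.98 (adjusted p = 0.064). Myc measured 163 and 172 CPM at day 4 and 128 and 108 CPM at day 6 (-0.50 ± 0.15), and it was lost without day 6 B, at -0.37 (adjusted p = 0.19), without day 4 A, at -0.53 (adjusted p = 0.058), and without day 4 B, at -0.43 (adjusted p = 0.094). Among the members called lower was Upp1, a uridine phosphorylase (-0.58 ± 0.19), which lost its call when day 6 A, day 4 A or day 4 B was left out. Of 16 tested genes of the formative and primed states, 4 were called higher and 2 lower, with a median of 0.52. The lower count was 0 without day 6 B and 1 without any other of the 4 libraries. The de novo DNA methyltransferase Dnmt3b rose among them, from 11.7 and 11.01 CPM to 27.4 and 32.8 CPM (1.39 ± 0.29). Etv4, an ETS factor, went from 7.63 and 12.6 CPM to 3.07 and 0.965 CPM (-2.19 ± 0.49), a call lost without day 6 B, at -1.59 (adjusted p = 0.052). The other member called lower, Etv5, a related ETS factor, lost its call without any 1 of the 4 libraries, at -0.33 to -0.52 (adjusted p from 0.097 to 0.29), under RLE factors, under DESeq2 and with the replicate block.

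**Figure D1:**
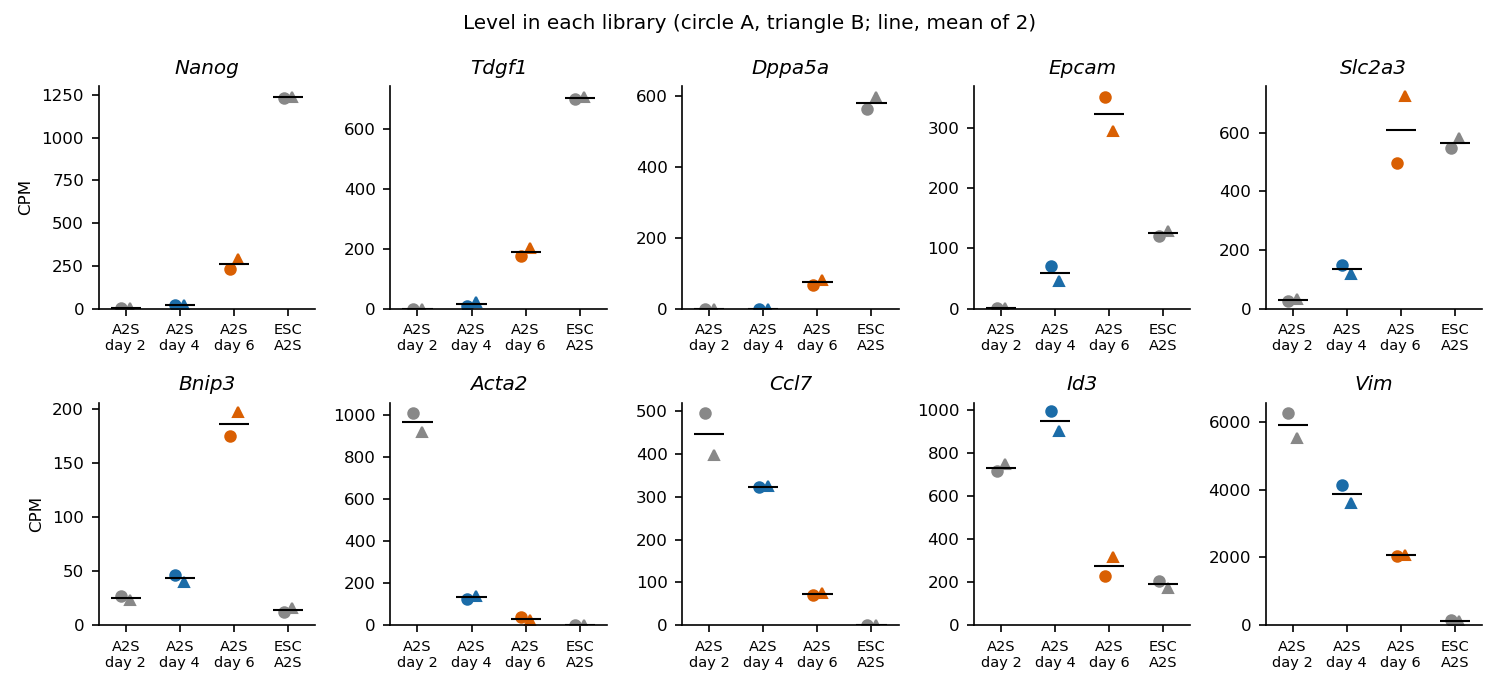
CPM of 10 genes (vertical axes, one panel a gene, each from 0) in A2S days 2, 4 and 6 and in ESCs grown with A2S, with circles for library A, triangles for library B and a line at the mean of the 2. Nanog, Tdgf1, Dppa5a, Epcam, Slc2a3 and Bnip3 lie higher at day 6 than at day 4 in both libraries, and Acta2, Ccl7, Id3 and Vim lie lower.

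Nanog lies on chromosome 6 of GRCm38 (mm10) at chr6:122707489-122714633, plus strand. Its RefSeq promoter (GRCm38.p6, 250 bases before to 50 after the start, chr6:122707239-122707538, plus strand) is shown because it is the promoter of a gene with the smallest adjusted p of all tested, shared with Mylpf, and carries a textbook Oct-Sox element. Capitals mark the match to TTTGCAT, any base (N) and ACAATG, searched on both strands, which starts 75 bases before the start site. Of 27025 RefSeq promoters of this length, only that of Nanog holds these letters (0.0037%), so the share is no background rate. Among 24 promoters of pluripotency genes called higher, 1 holds them, that of Nanog. A match describes the sequence and is no measurement of binding.
Nanog: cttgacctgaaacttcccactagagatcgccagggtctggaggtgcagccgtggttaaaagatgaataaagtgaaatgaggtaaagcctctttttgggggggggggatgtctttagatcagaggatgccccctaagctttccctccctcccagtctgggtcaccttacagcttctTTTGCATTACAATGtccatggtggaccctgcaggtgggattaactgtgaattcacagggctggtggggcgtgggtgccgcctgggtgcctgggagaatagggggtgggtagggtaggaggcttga

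Its neighbours moved with it. In the 196 kb span from Gdf3 to Slc2a3 on chromosome 6 (122605403 to 122801640), a window chosen after the values were seen, the annotation holds 4 protein-coding genes, Gdf3, Dppa3, Nanog and Slc2a3, and all 4 were called higher. Gdf3, a TGF-beta family ligand, went from 12.3 and 11.01 CPM to 39.0 and 44.4 CPM (1.82 ± 0.21). Dppa3 (Stella), a maternal factor that guards DNA methylation, had 1 UMI at day 4 and measured 63.3 and 64.3 CPM at day 6. The ratio of its UMIs was 356 (95% counting interval 63.5 to 14097). Slc2a3 (GLUT3), a glucose transporter, went from 149.9 and 118 CPM to 496 and 725 CPM (2.17 ± 0.14).

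Single cells show how widely these genes were counted. After every cell was thinned to 1000 UMIs, Nanog had a UMI in 2.09% and 1.26% of day 4 cells and in 21.7% and 22.8% of day 6 cells. In MEFs, which should lack it, none of 298 and 431 cells had one, which allows shares of up to 1.01% and 0.696%, and in ESCs with A2S the shares were 63.9% and 65.8%. Without thinning the shares were 8.79% and 10.3% at day 4 and 48.7% and 48.8% at day 6, at median depths of 15017 and 11296 UMIs a cell at day 4, 12707.5 and 10864.5 at day 6 and 22796 and 19102 in MEFs. Thinning left out 6 cells of day 4 B and 4 of day 6 B. Tdgf1 went from 0.418% and 1.26% to 16.5% and 14.6% of thinned cells, with no UMI in a MEF. No test of shares was run.

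Within day 6, most cells with Dppa5a also had Nanog. In library A, 28 of 32 (87.5%) cells with a Dppa5a UMI also had Nanog, against 84 of 198 (42.4%) cells without Dppa5a. In library B the counts were 34 of 37 (91.9%) against 92 of 221 (41.6%). Epcam, an epithelial adhesion molecule, was counted in 104 of 112 (92.9%) Nanog-positive cells and in 76 of 118 (64.4%) others in library A, and in 120 of 126 (95.2%) against 59 of 132 (44.7%) in library B. Vimentin (Vim), the intermediate filament of fibroblasts, went the other way. It was counted in 61 of 112 (54.5%) Nanog-positive cells against 106 of 118 (89.8%) others in A, and in 70 of 126 (55.6%) against 115 of 132 (87.1%) in B. These counts are unthinned and describe 1 library each. Median depth was 12369 UMIs in Nanog-positive and 12910.0 in other cells of A, and 12478 and 9793 in B.

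**Figure D2:**
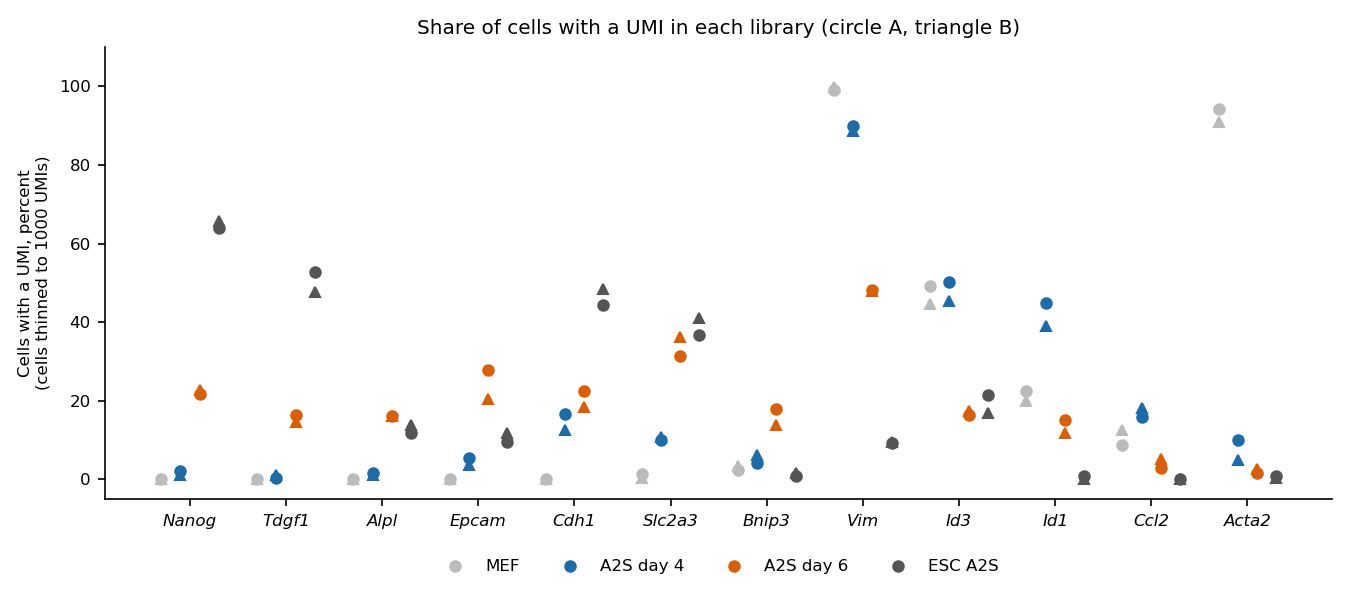
Share of cells with a UMI of 12 genes (vertical axis, percent of cells after thinning each to 1000 UMIs) in MEFs, A2S day 4, A2S day 6 and ESCs with A2S, circles for library A and triangles for library B. Nanog moves from 2.09 and 1.26 to 21.7 and 22.8 percent between the days and Vim from 90.0 and 88.7 to 48.3 and 48.0 percent.

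Against ESCs grown with A2S, day 6 cells differed in most genes. Of 13229 genes, 8385 were called between the pair of groups (63.4%), 4210 higher at day 6 (31.8%) and 4175 lower (31.6%). Of the 43 pluripotency genes, 39 were lower at day 6 than in these ESCs and 1 was higher, with a median of -2.45 against 0.01 over all genes. Mean levels at day 6 came to 21.0% of the ESC level for Nanog, 26.7% for Tdgf1, 8.01% for Sox2, 39.7% for Pou5f1 and 3.26% for Zfp42. Of 27 tested germline genes, 25 were lower at day 6 than in ESCs and 0 higher (median -5.63). Among mesenchymal and Hox lists, 15 of 18 collagens, 21 of 30 matrix glycoproteins and crosslinkers and 19 of 28 Hox genes were called higher than in ESCs, and 1 of each list lower. Of 28 mesenchymal transcription factors 14 were higher and 3 lower, and of 20 fibroblast surface markers 13 and 3. Contractile genes and YAP targets did not follow, with 7 of 22 higher (31.8%, the share over all genes), 6 lower and a median of 0.08. Cell-cycle genes stood below the ESC level: 39 of 51 G2 and M phase genes and 31 of 42 S phase genes were called lower, and 1 and 2 higher. ESCs are another cell source, so cell source and stage of reprogramming cannot be told apart here.

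Epithelial genes rose beside the pluripotency network. Of 28 tested adhesion and junction genes, 19 were called higher and 1 lower (median 1.43). Epcam went from 70.6 and 46.1 CPM to 353 and 296 CPM (2.42 ± 0.18, adjusted p = 1.0e-11). Its day 6 mean was 259.6% of that in ESCs with A2S. Cldn6, a tight-junction claudin of early embryonic cells, went from 4.90 and 4.72 CPM to 54.4 and 64.3 CPM (3.61 ± 0.34) and reached 882% of the ESC level. Both genes were higher in each day 6 library than in either day 4 library. Cdh1 (E-cadherin) was already at 173 and 149 CPM at day 4 and rose less, to 281 and 255 CPM (0.72 ± 0.13), 40.1% of the ESC level. The membrane protease inhibitors Spint1 (1.53 ± 0.16) and Spint2 (1.63 ± 0.14) rose as well. Dsc2, a desmosomal cadherin, was called lower (-0.73 ± 0.22), but not without day 6 B, at -0.51 (adjusted p = 0.2), or without day 4 A, at -0.60 (adjusted p = 0.17).

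Epithelial regulators followed. Of 15 tested epithelial transcription and splicing factors, 8 were called higher and 1 lower (median 1.53), and 5 were higher without day 6 B. Elf3, an ETS factor of epithelia, went from 8.45 and 9.43 CPM to 51.6 and 85.9 CPM (2.95 ± 0.28). Esrp1, which sets epithelial splicing, went from 3.00 and 2.10 CPM to 25.2 and 36.7 CPM (3.51 ± 0.43). Tfap2c, an AP-2 factor of trophoblast, germ cells and naive pluripotency, went from 25.3 and 17.8 CPM to 95.9 and 117 CPM (2.25 ± 0.24). The epithelial factor Ehf fell (-1.29 ± 0.29), a call lost without day 4 A, at -1.06 (adjusted p = 0.07). The simple-epithelial keratins Krt8 (2.43 ± 0.60) and Krt18 (2.85 ± 0.62) rose, while Krt19, another of that class, was called lower. Of 6 tested keratins, 4 were called higher and 1 lower, with 2 higher without day 6 A and 2 without day 4 A, and 0 lower without day 6 A, day 6 B or day 4 A. Of 15 tested Tfap2 and intermediate-state genes, 8 were called higher and 2 lower. Alpl, the alkaline phosphatase long used to stain reprogramming colonies, went from 16.1 and 14.7 CPM to 135 and 172 CPM (3.30 ± 0.20). Ap1m2, an adaptor subunit of epithelial sorting, went from 0.817 and 1.05 CPM to 32.6 and 40.5 CPM (5.29 ± 0.42). Cd24a, a surface glycoprotein, fell from 662 and 769 CPM to 386 and 319.8 CPM (-1.02 ± 0.12).

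The Epcam promoter is shown because Epcam had the smallest adjusted p of the junction genes and its promoter holds the E-box that the mesenchymal repressors Snail and Zeb bind. It lies at chr17:87635729-87636028, plus strand (GRCm38.p6, RefSeq), and capitals mark CACCTG or its reverse complement CAGGTG, which start 187 and 19 bases before the start site. CACCTG was searched on both strands with matches allowed to overlap other motifs. Of the 19 junction genes called higher, 12 have a RefSeq promoter in the table and 9 of these hold the motif (75.0%), against 20.0% of all 27025 promoters and 9 of 24 promoters (37.5%) of pluripotency genes called higher. List members that were not called were not counted apart, so the shares do not say whether the motif went with a rise. A match is a description of the sequence and no measurement of binding.
Epcam: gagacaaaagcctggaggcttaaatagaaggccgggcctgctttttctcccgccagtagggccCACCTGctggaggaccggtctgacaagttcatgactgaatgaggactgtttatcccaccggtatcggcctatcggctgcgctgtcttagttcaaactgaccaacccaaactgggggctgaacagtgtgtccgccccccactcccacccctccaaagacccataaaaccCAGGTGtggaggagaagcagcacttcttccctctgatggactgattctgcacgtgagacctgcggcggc

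**Figure D3:**
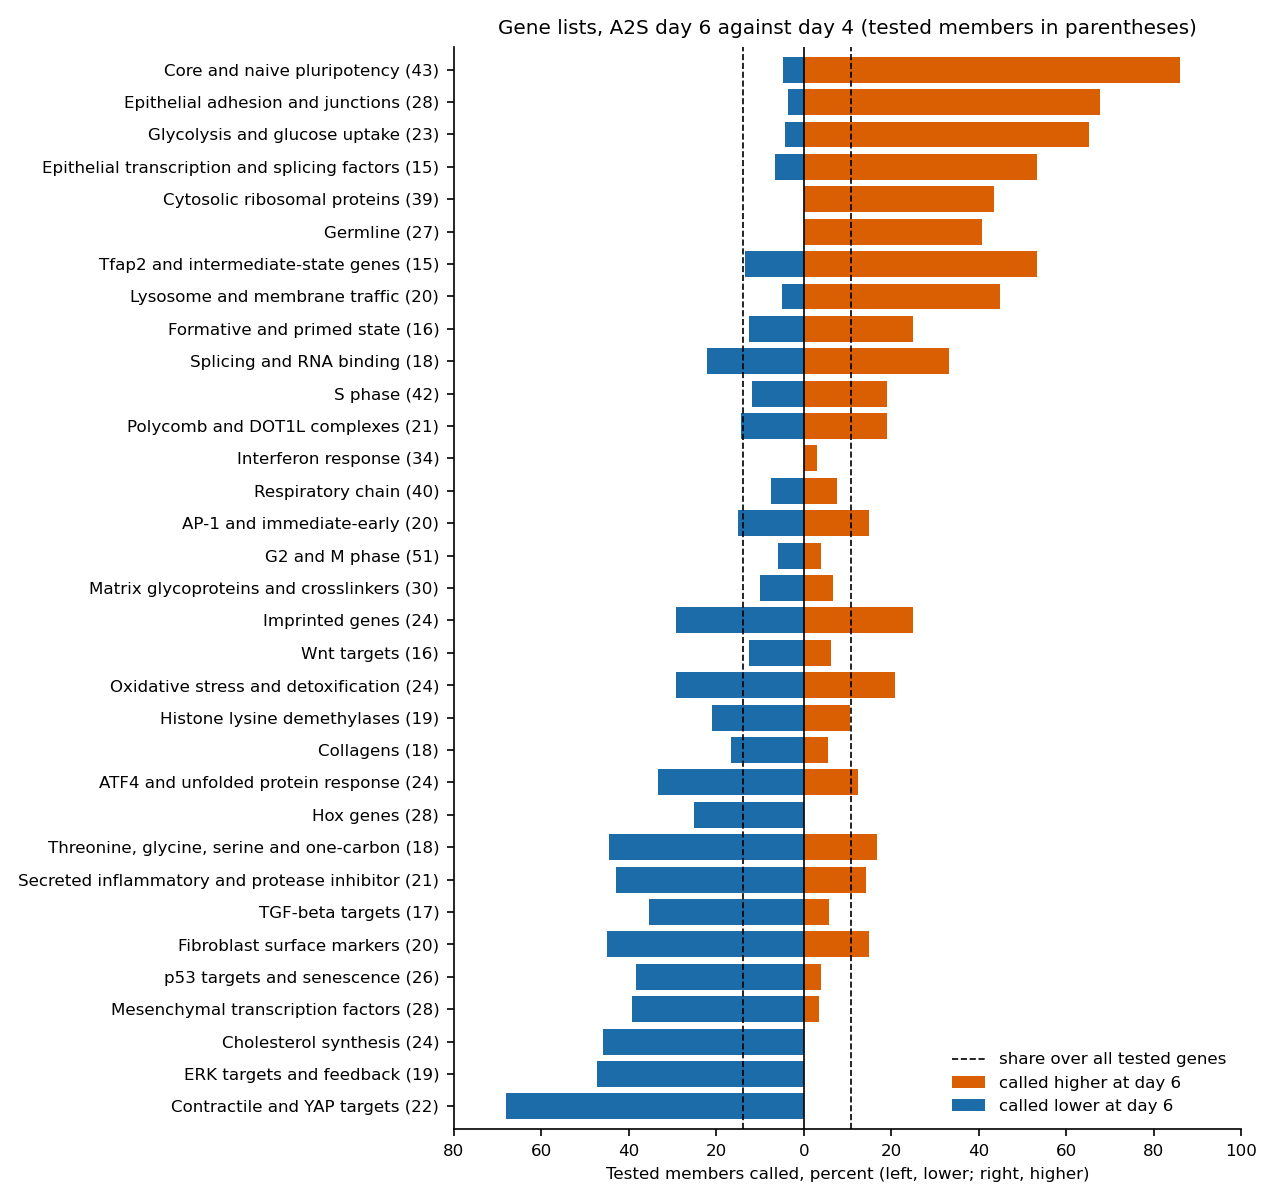
Percent of tested members called higher (right, orange) or lower (left, blue) at A2S day 6 against day 4, for the 33 gene lists with at least 15 tested members, whose number stands after the name. Dashed lines mark the shares over all tested genes, 10.8% higher and 13.8% lower. Pluripotency, epithelial adhesion and glycolysis lists reach furthest right, and contractile and ERK target lists are among those furthest left.

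Genes of glycolysis and glucose uptake rose as a group, 15 of 23 tested, with 1 called lower and a median of 0.60. Slc2a3, described above, reached 108% of the ESC level. Slc16a3 (MCT4), the lactate exporter, went from 10.4 and 5.24 CPM to 56.6 and 72.1 CPM (2.92 ± 0.31). Bnip3, a mitophagy receptor and hypoxia target, went from 46.3 and 39.8 CPM to 175 and 197 CPM (2.09 ± 0.16). In ESCs with A2S, Bnip3 was at 12.0 and 15.5 CPM and Slc16a3 at 1.64 and 0.276 CPM, below their day 6 levels. Aldoa, the muscle-type aldolase, went from 1229 and 1147 CPM to 2219 and 2336 CPM (0.94 ± 0.12). Hexokinase 2 (Hk2) was the member called lower (-0.43 ± 0.13), and it lost that call when any of the 4 libraries was left out. The histone demethylase Kdm3a, also known as a hypoxia target, rose from 60.8 and 69.7 CPM to 118 and 116 CPM (0.86 ± 0.11).

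Promoters of Bnip3 (chr7:138909457-138909756, minus strand) and Slc16a3 (chr11:120948817-120949116, plus strand) are shown, from RefSeq on GRCm38.p6, because both genes were among the strongest risers of the list and hold the core of the hypoxia response element. Capitals mark ACGTG or its reverse complement CACGT, searched on both strands. In Bnip3 the matches of the 2 strands overlap as CACGTG, starting 108 and 107 bases before the start site. In Slc16a3 they start 27 and 14 bases before it. Of 15 glycolysis genes called higher, 14 have a promoter in the table and 8 of these hold the motif (57.1%), against 19.7% of all promoters. The share was 5 of 12 (41.7%) for junction genes called higher and 4 of 24 (16.7%) for pluripotency genes called higher. List members that were not called were not counted apart, so the shares do not say whether the motif went with a rise. A match is no measurement of binding.
Bnip3: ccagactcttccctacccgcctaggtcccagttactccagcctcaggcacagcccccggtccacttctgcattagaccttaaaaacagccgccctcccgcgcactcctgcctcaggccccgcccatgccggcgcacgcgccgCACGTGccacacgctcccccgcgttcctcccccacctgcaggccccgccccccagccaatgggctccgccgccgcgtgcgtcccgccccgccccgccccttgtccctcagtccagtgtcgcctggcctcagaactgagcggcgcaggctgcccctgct
Slc16a3: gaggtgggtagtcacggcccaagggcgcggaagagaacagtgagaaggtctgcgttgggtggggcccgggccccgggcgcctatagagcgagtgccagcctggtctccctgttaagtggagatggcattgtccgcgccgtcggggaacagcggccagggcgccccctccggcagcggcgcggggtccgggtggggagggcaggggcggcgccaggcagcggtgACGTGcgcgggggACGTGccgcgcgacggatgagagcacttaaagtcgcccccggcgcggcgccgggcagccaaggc

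Other metabolic lists moved in either direction. Tdh, the threonine dehydrogenase that mouse ESCs depend on, went from 70.6 and 63.4 CPM to 244 and 244 CPM (1.85 ± 0.22), 19.7% of the ESC level, and the glycine cleavage enzyme Gldc rose by 1.90 ± 0.25. Across 18 tested genes of threonine, serine and one-carbon metabolism, 3 were higher and 8 lower, with 5 lower without day 6 A, 4 without day 6 B and 4 without day 4 B. The lower ones included Mthfd2, a mitochondrial folate enzyme (-1.10 ± 0.15), and Psat1, of serine synthesis (-0.65 ± 0.09). Cholesterol synthesis genes fell, 11 of 24 tested with 0 higher (median -0.60), among them Msmo1, from 122 and 115 CPM to 56.9 and 50.8 CPM (-1.14 ± 0.14). Lysosome and traffic genes were called higher in 9 of 20 cases and lower in 1 (median 0.42), with Hexa, a lysosomal hexosaminidase, at 0.92 ± 0.13. Of 39 cytosolic ribosomal protein genes, 17 were called higher and 0 lower, a median of 0.22, but 4 without day 6 B and 6 without day 4 B.

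Stress genes split. The metal-binding metallothioneins rose, Mt1 from 2087 and 1557 CPM to 3301 and 3999.6 CPM (1.0 ± 0.17) and Mt2 by 1.27 ± 0.17. Gpx2, an epithelial glutathione peroxidase, had 3 UMIs at day 4 and 142 at day 6, a ratio of 41.5 (95% counting interval 13.9 to 204). Aldh3a1, an aldehyde dehydrogenase, fell from 539 and 708 CPM to 237 and 245 CPM (-1.37 ± 0.15) and Gpx1 fell by 0.69 on the log2 scale. Of 24 genes of oxidative stress and detoxification, 5 were higher and 7 lower. Of 24 targets of ATF4 and the unfolded protein response, 3 were higher and 8 lower, with the chaperone Hspa5 at -0.61 ± 0.10. The lower count was 3 without day 6 B, 4 without day 4 A and 4 without day 4 B.

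Contractile genes fell together. Of 22 tested contractile genes and YAP targets, 15 were called lower and 0 higher (median -0.93). Acta2, smooth-muscle actin, went from 125 and 138 CPM to 37.5 and 23.2 CPM (-2.11 ± 0.29). Tagln (SM22) went from 101 and 109.5 CPM to 31.97 and 18.3 CPM (-2.05 ± 0.34). Both day 6 libraries lay below both day 4 libraries in each case. The actin-binding tropomyosin Tpm1 (-1.07 ± 0.14) and filamin Flna (-1.01 ± 0.11) fell as well. Vim, the filament protein, went from 4143 and 3605 CPM to 2054 and 2079 CPM (-0.91 ± 0.10), and its share of thinned cells went from 90.0% and 88.7% to 48.3% and 48.0%, with 99.0% and 99.8% in MEFs.

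Other mesenchymal genes moved less evenly. Of 20 fibroblast surface markers, 9 were lower and 3 higher. The lower ones included Cd44, the hyaluronan receptor (-0.99 ± 0.14), and Vcam1, an adhesion molecule (-1.88 ± 0.27). The 3 higher ones were Pdgfrb, Cd248 and Fap. Without day 4 A, 5 were lower, and the count of higher ones was 0 without day 6 B, 0 without day 4 A and 1 without day 4 B. Of 28 mesenchymal transcription factors, 11 were called lower and 1 higher (median -0.58), but 3, 2, 3 and 4 were lower without day 6 A, day 6 B, day 4 A and day 4 B. Prrx1, a limb mesenchyme homeobox factor, went from 216 and 192 CPM to 77.2 and 108 CPM (-1.15 ± 0.14), and Runx2, of the bone lineage, fell by 1.63 on the log2 scale. Twist1 at -0.15 ± 0.19 did not pass the test (adjusted p = 0.6). Zeb1, a repressor of epithelial genes, was called at -0.75 ± 0.23, a call lost without day 6 A, at -0.63 (adjusted p = 0.14), without day 6 B, at -0.83 (adjusted p = 0.058), or without day 4 A, at -0.51 (adjusted p = 0.34). The fibroblast marker Thy1 measured 121 and 81.2 CPM at day 4 and 89.8 and 52.8 CPM at day 6 with overlapping groups (-0.54 ± 0.19), a call lost without day 6 B, at -0.18 (adjusted p = 0.62), or without day 4 A, at -0.17 (adjusted p = 0.71).

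Few matrix genes were called. Of 18 collagens, 1 was called higher and 3 lower (median -0.11), with 5 lower without day 6 A and 0 higher without day 6 A or day 4 A. Of 30 matrix glycoproteins and crosslinkers, 2 were higher and 3 lower (median 0.07), with 5 higher without day 6 A, 0 without day 6 B and 1 without day 4 A or day 4 B. Both lists lie near or under the shares over all genes. The members called higher were Col18a1 among the collagens, and Mfap5 and Fmod among the glycoproteins and crosslinkers. Col1a1, a chain of type I collagen, measured 62.9 and 96.9 CPM at day 4 and 111 and 101 CPM at day 6 (0.45 ± 0.29, adjusted p = 0.26). It was called with listed feeder cells kept, at 1.02 (adjusted p = 0.0088), and when only the A2S libraries of both days were fitted, at 0.50 (adjusted p = 0.004). Col6a1, of microfibrillar collagen VI, fell from 177 and 171 CPM to 70.4 and 86.9 CPM (-1.15 ± 0.18), and Col15a1 fell by 1.58 on the log2 scale. Serpinh1, the collagen chaperone HSP47, went from 639.8 and 653 CPM to 459 and 393 CPM (-0.60 ± 0.11).

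Secreted inflammatory genes fell. Of 21 tested genes of this list, 9 were lower and 3 higher (median -0.50). The neighbouring chemokine genes Ccl2 and Ccl7 on chromosome 11 both fell. Ccl2 went from 316 and 272 CPM to 42.1 and 76.6 CPM (-2.32 ± 0.27) and Ccl7 from 322 and 326 CPM to 69.8 and 75.6 CPM (-2.16 ± 0.15). Ptx3, a soluble pattern receptor, went from 44.1 and 49.8 CPM to 6.15 and 5.15 CPM (-3.03 ± 0.28). Cxcl5, a neutrophil chemokine, fell by 1.94 and Il1rn, the interleukin 1 receptor antagonist, by 2.22 on the log2 scale. The 3 called higher were Spp1, Mmp13 and Has2. Spp1 (osteopontin) went from 45.2 and 38.3 CPM to 198 and 254 CPM (2.41 ± 0.30), a call lost when listed feeder cells were kept, at 0.46 (adjusted p = 0.52). Mmp13, a collagenase, had its 40 UMIs in a single cell of day 6 B, and its value was -2.17 (adjusted p = 0.14) with listed cells kept and 0.00 without day 6 B. Has2, a hyaluronan synthase, had no UMI at day 4 and 15 at day 6, and its call was lost without day 6 A, day 4 A or day 4 B. The list's higher count was 1 without day 4 A and 1 without day 4 B.

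Id genes and ERK targets fell. The Id genes, helix-loop-helix inhibitors induced by BMP signals, fell in parallel. Id1 went from 701 and 593 CPM to 191 and 161 CPM (-1.88 ± 0.12), Id2 from 577 and 562 CPM to 175 and 154 CPM (-1.79 ± 0.14), and Id3 from 993 and 901 CPM to 228 and 317 CPM (-1.80 ± 0.12). All day 6 libraries lay under all day 4 libraries for each of them. Of 17 targets of TGF-beta family signals, among them these Id genes, 6 were lower and 1 higher (0 without day 4 A). Of 19 ERK targets and feedback genes, 9 were lower and 0 higher (median -0.45), with MEK inhibitor present at both times. Dusp6, the ERK phosphatase, went from 24.2 and 22.0 CPM to 9.53 and 6.11 CPM (-1.57 ± 0.30) and Phlda1 from 162 and 150.4 CPM to 49.2 and 38.6 CPM (-1.83 ± 0.22). Cyclin D1 (Ccnd1) fell by 0.88 on the log2 scale. Of 20 AP-1 and immediate-early genes, 3 were higher and 3 lower (15.0% each, near the shares over all genes), and the higher count was 1 without day 6 A. Fosl1 (-2.44 ± 0.51) and Junb (-1.09 ± 0.13), AP-1 subunits, fell. Of 26 p53 targets and senescence genes, 10 were lower and 1 higher, but 6, 5, 4 and 5 were lower without day 6 A, day 6 B, day 4 A and day 4 B. Ccng1, a cyclin induced by p53, went from 1030.5 and 1058 CPM to 687 and 579.7 CPM (-0.72 ± 0.14). Cdkn2a, the Ink4a/Arf locus, was at -0.01 ± 0.19 (adjusted p = 0.98).

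The remaining genes with the largest falls at 50 CPM or more were of mixed roles. Nefl, the light neurofilament subunit, went from 128 and 78.6 CPM to 12.0 and 14.2 CPM (-3.02 ± 0.40). Serpinb9b, a serine protease inhibitor, went from 70.8 and 55.5 CPM to 8.30 and 12.2 CPM (-2.65 ± 0.33). Dlk2, a relative of the Notch ligands, went from 55.3 and 52.9 CPM to 8.30 and 13.2 CPM (-2.34 ± 0.23). Dusp14, a phosphatase, went from 408 and 340.1 CPM to 96.8 and 76.2 CPM (-2.12 ± 0.17). Fst (follistatin), an activin antagonist, fell by 1.89, Elmod1 by 2.24 and Scg5, a chaperone of secretory granules, by 1.90 on the log2 scale. Among the largest rises, Calcoco2, an autophagy receptor, went from 1.09 and 1.05 CPM to 58.7 and 63.7 CPM (5.78 ± 0.45). Mylpf, a myosin light chain of fast muscle, went from 2.18 and 2.62 CPM to 59.3 and 81.1 CPM (4.89 ± 0.29). Igfbp2, which binds insulin-like growth factors, went from 10.1 and 13.6 CPM to 188 and 199 CPM (4.08 ± 0.57). AA467197 (3.64 ± 0.29) and Fam25c (3.09 ± 0.28) rose as well.

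H19 and Igf2 rose through very few cells. H19, an imprinted noncoding RNA (chromosome 7, 142575529 to 142578143, minus strand), went from 1.63 and 2.10 CPM to 112 and 272 CPM (6.71 ± 1.01). Igf2, an imprinted growth factor 72.6 kb away, went from 2.45 and 2.62 CPM to 19.7 and 107 CPM (4.63 ± 0.91), and its call was lost without day 6 B, at 2.98 (adjusted p = 0.062). In day 6 A, 363 UMIs of H19 lay in 15 of 230 cells, and the 5 cells with most held 91.5% of them. In day 6 B, 845 UMIs lay in 13 of 258 cells, and 5 cells held 98.0%. For Igf2 the 5 cells with most held 95.3% and 99.7% of its UMIs. By contrast the 5 cells with most Nanog held 15.8% and 14.7% of its UMIs, spread over 112 and 126 cells. Outside the 5 cells with most H19, 31 and 17 H19 UMIs remained. Those 5 cells held 1.96% and 2.54% of all UMIs of their library. In A they held 48 of 915 UMIs of Cdh1, 36 of 1147 of Epcam, 22 of 754 of Nanog and 18 of 611 of Igfbp2. Of fibroblast genes in A they held 20 of 119 UMIs of Fmod (fibromodulin), 15 of 212 of Col3a1 and 14 of 362 of Col1a1. Of further fibroblast genes in A they held 11 of 292 UMIs of Thy1, 10 of 335 of Lox, 57 of 6680 of Vim and none of the 1129 of Thbs1. In B they held 61 of 792 UMIs of Cdh1, 25 of 919 of Epcam, 7 of 892 of Nanog and 18 of 619 of Igfbp2. None of the 209, 100 and 313 UMIs of Fmod, Col3a1 and Col1a1 in B lay in them. They also held none of the 164 UMIs of Thy1 and 124 of Lox in B, 9 of 6462 of Vim and 2 of 1491 of Thbs1. They held none of the 770 and 762 UMIs of Aldh3a1, and 1 of 1523 and 23 of 1171 UMIs of Perp, a desmosomal protein. The edgeR value treats each library as 1 sum and does not see how many cells carry it.

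**Figure D4:**
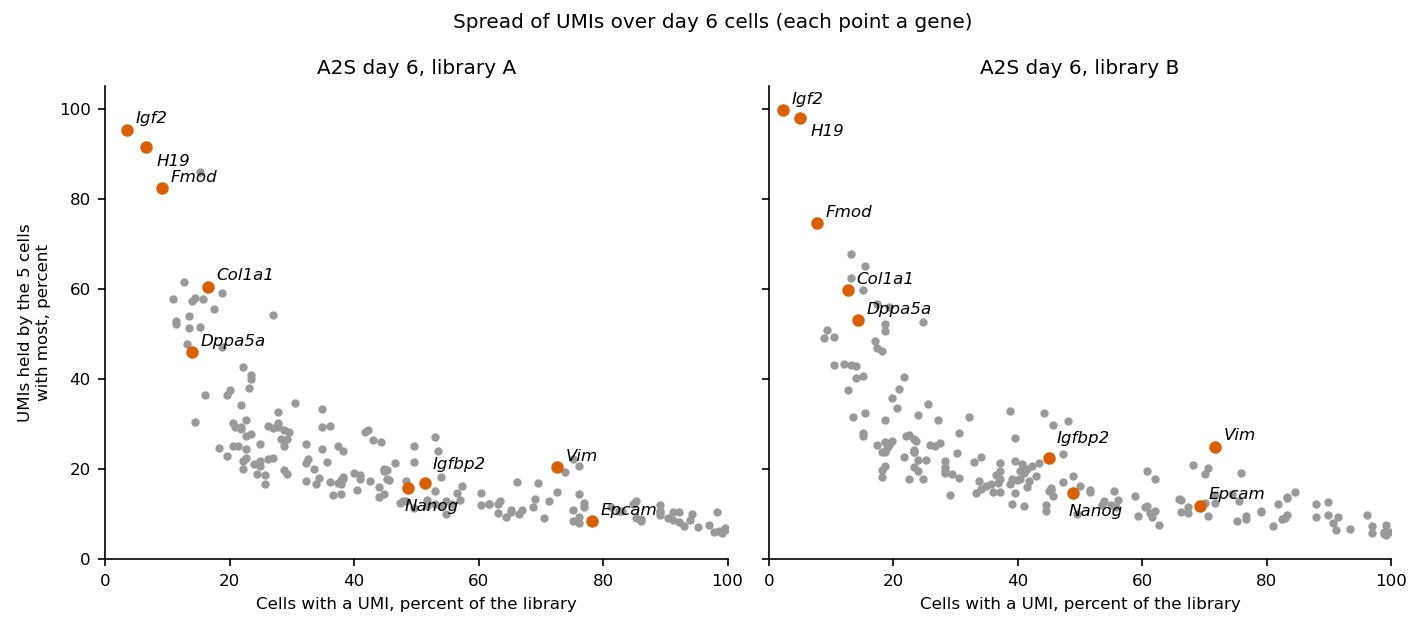
For 190 genes with at least 50 UMIs in each day 6 library, the percent of cells with a UMI (horizontal axis) and the percent of the gene's UMIs held by the 5 cells with most (vertical axis), in libraries A and B. H19 and Igf2 sit at the top left, at 91.5% to 99.7% in 5 cells, while Nanog, Epcam and Igfbp2 lie among genes spread over many cells.

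Other imprinted genes moved both ways, and the germline genes that were called rose. Of 24 imprinted genes, 6 were higher and 7 lower, and the lower count was 4, 4, 3 and 4 without day 6 A, day 6 B, day 4 A and day 4 B. Phlda2, which limits placental growth, went from 0.817 and 1.05 CPM to 20.6 and 17.1 CPM (4.33 ± 0.47), and Peg3, a zinc-finger gene, from 8.45 and 4.19 CPM to 40.6 and 34.4 CPM (2.45 ± 0.36). Plagl1 (-1.28 ± 0.16) and Zdbf2 (-1.73 ± 0.25) fell. Of 27 germline genes, 11 were higher and 0 lower, with 7 higher without day 4 A. Kit, the stem cell factor receptor, went from 11.2 and 10.5 CPM to 31.1 and 42.5 CPM (1.75 ± 0.24). Prdm14, a germ cell and pluripotency regulator, had no UMI at day 4 and 42 at day 6, at least 12.3-fold higher. Tex19.1, a guard against retrotransposons, had 3 UMIs at day 4 and 75 at day 6, a ratio of 21.9 (95% counting interval 7.22 to 109). Of 28 Hox genes, 7 were lower and 0 higher, but 3 without day 4 B. Hoxc8 went from 13.4 and 17.8 CPM to 1.54 and 3.86 CPM (-2.48 ± 0.39).

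Most lists of chromatin regulators had counts not far from the shares over all genes (10.8% higher, 13.8% lower). Tet1, which oxidises 5-methylcytosine, went from 10.6 and 7.86 CPM to 48.0 and 57.6 CPM (2.45 ± 0.27). Of 13 DNA methylation and Tet genes, 4 were higher (30.8%) and 1 lower, and 0 were lower without any 1 of the 4 libraries. Kdm5b, an H3K4 demethylase, rose by 0.86 ± 0.15, among 19 lysine demethylase genes with 2 higher (10.5%) and 4 lower (21.1%). The higher count was 4 without day 6 B, and the lower count 0 without day 6 B, 2 without day 4 A and 0 without day 4 B. Of 21 genes of Polycomb and DOT1L complexes, 4 were higher (19.05%) and 3 lower (14.3%). The Polycomb partner Jarid2 rose from 61.6 and 53.5 CPM to 106 and 127 CPM (0.998 ± 0.13) and Bmi1 fell from 88.0 and 90.1 CPM to 50.7 and 41.5 CPM (-0.95 ± 0.15). Mllt3, a reader protein found in DOT1L complexes, fell by 0.73 on the log2 scale. Of 18 splicing and RNA-binding genes, 6 were higher and 4 lower, with 3 higher without day 4 A. The lower count was 2, 1 and 2 without day 6 A, day 6 B and day 4 B. Mbnl1, a splicing regulator of differentiated cells, went from 237 and 238 CPM to 107 and 82.0 CPM (-1.33 ± 0.13).

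Few genes of the interferon, respiratory and G2 and M phase lists were called. Of 42 S phase genes, 8 were higher and 5 lower, and of 51 G2 and M phase genes 2 and 3, with 0 lower without day 6 A and 1 without any other of the 4 libraries. The S phase count of higher genes was 4 without day 6 B and 5 without day 4 B, and that of lower genes ran from 0 without day 6 A to 2 without day 6 B or day 4 B. Of 34 interferon response genes, 1 was higher (0 without day 6 B, day 4 A or day 4 B) and 0 lower. Of 40 respiratory chain genes, 3 were higher and 3 lower, with 0 higher without day 6 B or without day 4 B and 0 lower without day 6 A and 1 without any other of the 4 libraries. Of 16 Wnt targets, 1 was higher (0 without day 6 B or day 4 A) and 2 lower, with Axin2, a feedback target, at -1.12 ± 0.25.

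Marker genes of other cell types were summed in each library. The 16 macrophage and blood markers came to 129 and 102 CPM at day 4 and 128 and 132 CPM at day 6. These sums compare with 9.79 and 13.6 CPM in MEFs and 120 and 115 CPM in ESCs with A2S. Members at 0 in all 4 libraries were Ptprc, Tyrobp, Adgre1, C1qa, C1qb, Spi1, Hba-a1 and Hbb-bs, and the other members made up the sums. Of 10 tested members, 0 were called. Endothelial markers came to 235 and 214 CPM at day 4 and 121 and 130.3 CPM at day 6. Their members split: of 6 tested, Pecam1, Egfl7 and Flt1 were called higher, Cd34 and Tek lower, and the median was 0.53, with 1 higher without day 4 B. Neural and glial markers came to 468 and 483 CPM at day 4 and 221 and 243 CPM at day 6, with 5 of 13 tested called higher and 2 lower, but 2 higher without day 6 A and 0 without any other of the 4 libraries. Trophoblast markers, which include Tfap2c and Krt7, came to 62.1 and 52.9 CPM at day 4 and 131 and 166 CPM at day 6. Muscle markers stayed at or below 13.8 CPM, endoderm markers between 132 and 169 CPM and keratinocyte markers between 90.1 and 135 CPM. Fibroblast markers came to 1268 and 1399.7 CPM at day 4 and 1139 and 910.5 CPM at day 6, against 11426 and 10426 CPM in MEFs. Among the 10 fibroblast members, Pdgfrb was called higher at day 6 than at day 4, and Prrx1, Col3a1 and Thy1 lower (median -0.17). Pluripotent cell markers came to 281 and 287 CPM at day 4 and 876 and 1017 CPM at day 6, against 4938 and 4931 CPM in ESCs with A2S. Of these 10 markers, 9 were called higher and 0 lower, with a median log2 fold change of 4.03, and L1td1 was not called. The sums thus do not show the typical change of a member. The fibroblast marker sum was well under that of MEFs at both times, and pluripotency genes were below the ESC level at day 6. No test against MEFs was run. The authors' feeder list held 1 barcode of the day 4 libraries and 4 of the day 6 libraries.

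Whether the step from day 4 to day 6 differed in media that lacked a compound was asked by testing the difference between the day 4 to day 6 changes (an interaction in the same edgeR fit). The compounds were given from day 0 or 12 h later, and levels at day 4 already differed between media for some genes, Nanog among them. A different state at day 4 and a need for the compound between the days therefore cannot be told apart. The A2S libraries are shared by the 3 comparisons. Without SGC0946 (A2), 1047 genes changed differently (7.91% of 13229), 382 more upward in A2S (2.89%) and 665 more downward (5.03%). Calcoco2 in A2 stood at 4.59 and 6.43 CPM at day 4 and 0.654 and 0 CPM at day 6, in contrast to its rise in A2S (interaction 9.76 ± 1.01, adjusted p = 7.7e-07, a size that depends on how the model treats the near-0 counts). Il1rn moved the other way: it fell in A2S, and in A2 it stood at 122 and 142 CPM at day 4 and 348 and 383 CPM at day 6 (interaction -3.71 ± 0.54, adjusted p = 6.0e-05). Col12a1, a fibril-associated collagen, stood at 29.7 and 24.6 CPM at day 4 and 24.9 and 11.9 CPM at day 6 in A2S and at 44.3 and 48.0 CPM at day 4 and 172 and 177 CPM at day 6 in A2 (interaction -2.51 ± 0.31, adjusted p = 5.3e-06). Osmr, the oncostatin M receptor, had an interaction of -2.68 ± 0.30 and Sfn, an epithelial 14-3-3 protein, of 3.71 ± 0.60. Mylpf had one of 4.96 ± 0.65, which was lost without A2 day 4 A, at 3.24 (adjusted p = 0.22).

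Several lists differed between A2S and A2. For glycolysis genes, 11 of 23 members changed more upward and 2 more downward in A2S (median difference 0.62, against -0.03 over all genes). Slc2a3 in A2 stood at 49.6 and 53.6 CPM at day 4 and 102 and 112 CPM at day 6 (interaction 1.10 ± 0.22, adjusted p = 0.0018) and Bnip3 at 45.2 and 38.6 CPM at day 4 and 59.9 and 55.7 CPM at day 6 (interaction 1.65 ± 0.24, adjusted p = 4.9e-05). For epithelial adhesion, 8 of 28 members changed more upward and 0 more downward (median 0.92). For secreted inflammatory genes, 1 of 21 members changed more upward and 6 more downward (median -1.16). For pluripotency genes, 7 of 43 members changed more upward and 2 more downward (median 1.77). Nanog in A2 stood at 1.61 and 3.00 CPM at day 4 and 11.8 and 13.0 CPM at day 6, and its interaction was 1.11 ± 0.67, adjusted p = 0.35. Epcam in A2 stood at 4.13 and 7.72 CPM at day 4 and 17.0 and 9.78 CPM at day 6 (interaction 1.16 ± 0.44, adjusted p = 0.11).

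Without ascorbic acid (S2), 448 genes changed differently (3.39%), 195 more upward in A2S (1.47%) and 253 more downward (1.91%). Spp1 in S2 stood at 43.8 and 135 CPM at day 4 and 33.2 and 16.9 CPM at day 6, with both day 6 libraries below both day 4 libraries, where A2S rose (interaction 4.18 ± 0.46, adjusted p = 1.9e-06). That call was lost with listed cells kept, at 2.28 (adjusted p = 0.071). Ctgf, a matricellular YAP target, stood at 83.1 and 66.6 CPM at day 4 and 140.5 and 50.5 CPM at day 6 in A2S and at 137 and 160.1 CPM at day 4 and 26.5 and 20.8 CPM at day 6 in S2 (interaction 2.97 ± 0.49, adjusted p = 7.8e-04). Mmp11, a matrix protease, stood at 12.5 and 11.5 CPM at day 4 and 48.9 and 61.4 CPM at day 6 in A2S and at 24.4 and 25.6 CPM at day 4 and 14.7 and 14.1 CPM at day 6 in S2 (interaction 2.96 ± 0.33, adjusted p = 2.3e-06). Acta2 in S2 stood at 196 and 213 CPM at day 4 and 306 and 133 CPM at day 6, with overlap (interaction -2.22 ± 0.38, adjusted p = 9.9e-04), a call lost with listed cells kept, at -1.03 (adjusted p = 0.24). Atn1, a transcriptional corepressor, had an interaction of -1.62 ± 0.24. H19 in S2 stood at 23.3 and 38.0 CPM at day 4 and 42.7 and 12.6 CPM at day 6 (interaction 6.78 ± 1.42, adjusted p = 0.0068), lost without A2S day 4 A, at 6.57 (adjusted p = 0.057). For pluripotency genes, 10 of 43 members changed more upward and 0 more downward (median 1.55, against -0.01 over all genes), and for glycolysis genes 4 and 1. Nanog in S2 stood at 9.39 and 8.67 CPM at day 4 and 59.6 and 58.1 CPM at day 6 (interaction 0.96 ± 0.41, adjusted p = 0.22).

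Without 2i (AS), 1440 genes changed differently (10.9%), 495 more upward in A2S (3.74%) and 945 more downward (7.14%). Il1rn in AS stood at 144 and 215 CPM at day 4 and 502 and 701 CPM at day 6 (interaction -3.94 ± 0.53, adjusted p = 1.0e-05), opposite to its fall in A2S. Serpina3n, an acute-phase protease inhibitor, stood at 42.2 and 21.0 CPM at day 4 and 24.6 and 37.6 CPM at day 6 in A2S and at 12.2 and 27.4 CPM at day 4 and 184 and 230.0 CPM at day 6 in AS (interaction -3.35 ± 0.42, adjusted p = 2.6e-06). For secreted inflammatory genes, 2 of 21 members changed more upward and 8 more downward (median -1.90, against -0.03 over all genes). Krt8, which rose in A2S, stood in AS at 64.2 and 119 CPM at day 4 and 27.4 and 41.3 CPM at day 6 (interaction 3.90 ± 0.75, adjusted p = 6.0e-04). Genes absent or nearly so at AS day 4 gave negative interactions although they rose in A2S. Tdgf1 in AS stood at 0 and 0.223 CPM at day 4 and 40.4 and 55.5 CPM at day 6 (interaction -4.22 ± 1.05, adjusted p = 0.0087), and Tfap2c at 0.509 and 0 CPM at day 4 and 21.1 and 35.2 CPM at day 6 (interaction -4.91 ± 0.90, adjusted p = 3.9e-04). The size of both depends on how the model treats counts near 0 in AS at day 4. Both calls were lost without AS day 4 B, at -6.50 (adjusted p = 0.12) and -3.38 (adjusted p = 0.065). For pluripotency genes, 5 of 43 members changed more upward and 6 more downward (median 0.22), for glycolysis 8 and 1, and for contractile genes 1 and 7. Nanog in AS stood at 0.509 and 2.01 CPM at day 4 and 16.2 and 33.8 CPM at day 6 (interaction -0.28 ± 0.60, adjusted p = 0.85).

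**Figure D5:**
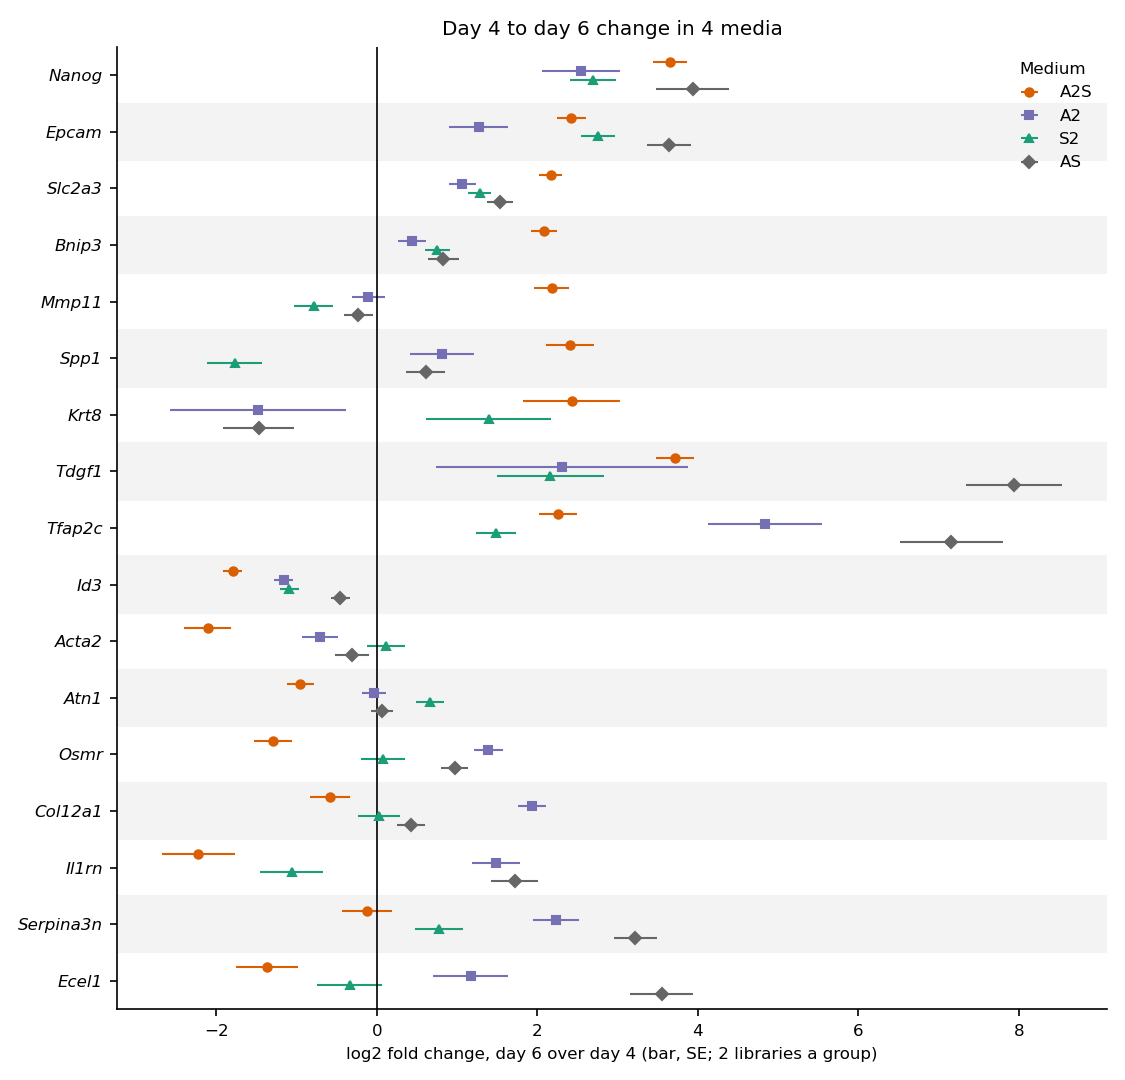
Log2 fold change of day 6 over day 4 (horizontal axis, bars show SE, 2 libraries a group) for 17 genes in A2S, A2, S2 and AS. Krt8 lies right of 0 in A2S and left of it in AS, and Il1rn lies left of 0 in A2S and right of it in A2 and AS.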

How the data were processed

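The authors deposited tables of UMI counts (whole numbers, genes by cells) of 32 libraries, 2 for each of 16 groups, from ddSEQ droplet libraries of transcript 3' ends, per the labels. Reads went through bcl2fastq 2.19 and STAR with the mm10 build, as the submitters' processing notes list. For the annotation and the counter, the version is not given in the sources used here. Of 8334 barcodes, 684 on the authors' feeder list were dropped and 7650 kept. The tables held 24421 genes, 18897 of them with a UMI, and 0 mitochondrially encoded genes, so RNA quality could not be read from those.

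Each library's UMI counts were added up over cells. One model over the 32 libraries (16 residual degrees of freedom) was fitted by edgeR's quasi-likelihood method (version 4.0.16, under R 4.3.3) after filterByExpr and TMM. All 13229 tested genes entered the Benjamini-Hochberg adjustment. CPM uses TMM-scaled library totals over tested genes. A fold against a group at 0 was set against 3 UMIs over the group, and with 1 to 3 UMIs a ratio with an exact 95% counting interval is given, which covers counting error only. Replicates differed by more than sampling noise (chi-square per degree of freedom 2.01 at day 4 and 2.46 at day 6), so none was counted as a copy. Doublets were not called, and cells were not clustered.

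The named genes were, by rule, the 15 called genes with the largest rise and the 15 with the largest fall whose higher group reached 50 CPM and whose groups did not overlap, leaving out ribosomal-protein, predicted and Rik genes. A panel of 16 genes and up to 4 called members each way of 38 pathway and 9 marker lists were added, and 6 genes each way for the other comparisons. Not all are described, and some are not reported here. The members and lists were chosen with earlier results of these data known. Gdf3 is outside the rule and was named after its values were seen. Promoters come from RefSeq (GRCm38.p6) and gene positions from the GENCODE annotation of GRCm38. The test was tried on simulated counts first. The fit was repeated leaving out each library, with only the compared groups, with only cells of at least 1000 UMIs, with feeder-listed cells in, with a block for the replicate letter, without the count filter, with RLE factors, and in DESeq2 1.42.0. Shares of cells were also taken at 500 and 2000 UMIs and unthinned. Other tools were Python 3.11.15, numpy 2.4.6, pandas 2.3.3, scipy 1.17.1 and matplotlib 3.10.9.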

Additional observations from a re-analysis of the deposited data

Results flagged for a closer look

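These results stand out because the change from day 4 to day 6 differed between A2S and a medium lacking 1 compound, by the interaction test of edgeR (n = 2 libraries a group). Values after genes are A2S step minus other step, in log2 units, all called. The A2S libraries are the same in each comparison.

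Against A2, 1047 genes differed. Among the largest by the naming rule were Calcoco2 (9.76), Mylpf (4.96), Igf2 (4.44), Sfn (3.71) and Cldn4 (2.85) on the side of A2S, and Il1rn (-3.71), Osmr (-2.68), Nefl (-2.66), Col12a1 (-2.51) and Sall4 (-2.44) on the other. The Igf2 UMIs of A2S day 6 lay mostly in very few cells, as described above. Igf2, Sall4 and Cldn4 lost the call under most leave-one-out fits, and Mylpf and Nefl without A2 day 4 A.

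Against S2, 448 genes differed, led by H19 (6.78), Calcoco2 (5.88), Spp1 (4.18), Mylpf (3.69), Ctgf (2.97) and Mmp11 (2.96), and by Acta2 (-2.22), Nefl (-2.08), Tagln (-1.74), Adh7 (-1.68), Atn1 (-1.62) and Peg10 (-1.39). In A2S day 6 libraries A and B, 5 cells held 91.5% and 98.0% of the H19 UMIs. Ctgf, Mmp11 and Atn1 kept the call under every alternative that was run. The other 9 lost it under at least 1, H19 only without A2S day 4 A, and Acta2 and Spp1 only with listed cells kept.

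Against AS, 1440 genes differed, among them Calcoco2 (6.55), Mylpf (4.31), Krt8 (3.90), Tnfrsf11b (2.97) and Mmp11 (2.41), and Ecel1 (-4.92), Tfap2c (-4.91), Tdgf1 (-4.22), Trh (-4.05), Il1rn (-3.94) and Serpina3n (-3.35). Tdgf1, Tfap2c and Mylpf lost the call without AS day 4 B, and Trh without AS day 4 B, A2S day 4 A or A2S day 4 B and under DESeq2.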

How the results depend on the processing

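Of the 3254 genes called between A2S days 4 and 6, all had the same direction under RLE factors, DESeq2 and the replicate block, and 3252 to 3254 when a library was left out. DESeq2 called 2101 genes here, 609 for the A2 step and 902 for the AS step, and a fit of the compared groups alone called 665 for the AS step. Leaving out 1 library gave 1758 (without A2S day 4 A) to 2265 (without A2S day 6 A) genes for day 6 against day 4, 482 (without A2S day 6 B) to 832 for the A2 step, 128 (without S2 day 6 A) to 406 for the S2 step, 831 (without A2S day 4 A) to 2106 (without AS day 4 A) for the AS step and 7331 to 7365 against ESCs. Fewer samples enter each of those fits, and a lone library is assumed to vary as the other groups do. Mmp13 turned with listed cells kept, at -2.17 (adjusted p = 0.14), and ran from 0.00 without day 6 B to 8.415 without day 6 A, since its UMIs lay in 1 cell. The labels do not say whether replicate letters pair the samples. The deviations of A from B at day 4 and day 6 correlated at -0.02 across genes. That value cannot settle the question, because sampling noise in each gene weakens it. With the letter as a replicate block, 3163 genes were called, and 1016, 427, 1406 and 8328 in the A2, S2, AS and ESC comparisons. RLE factors called 3114 genes, of which 49.8% were higher, against 44.0% in the main result. Of 236 named genes called between days 4 and 6, 149 kept their call under every alternative run and 87 lost it under at least 1. With 2 libraries a group, small changes are within reach only where UMIs are many, and genes with a few UMIs a library give ratios of wide interval.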
